A study of Arabidopsis thaliana with 24 samples.

Results

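Leaves of Arabidopsis thaliana with the gene of an ethylene response factor, ERF104, under the 35S promoter (35S::ERF104) were compared with leaves of the wild-type accession Col-0, both 4 h after infiltration with the peptide flg22. The members were chosen by sample title and comprise 3 arrays of each genotype, 6 of the 24 arrays of the series. All arrays are Affymetrix ATH1 arrays of leaf RNA from 6-week-old plants grown on soil in short days of 8 h light and 16 h dark, and flg22 was given at 1 µM in both groups. The other groups were 35S::ERF104, erf104 and mpk6 leaves and Col-0 leaves under water, and the erf104 and mpk6 mutants under flg22, each with 3 arrays. The 35S promoter drives expression in most cell types and without regard to the treatment. The labels do not say how many transgenic lines were used or whether replicates were separate plants, so the p-values measure the spread between these arrays, which may be technical.

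Flg22 is a stretch of bacterial flagellin that plant cells perceive through the receptor kinase FLS2. Perception activates MAP kinases, among them MPK6, and raises ethylene production. ERF104 belongs to group IX of the ethylene response factors, transcription factors that bind a GC-rich element in the promoters of defence genes such as plant defensins, and it is a substrate of MPK6. In Arabidopsis leaves, indole glucosinolates are defence metabolites made from tryptophan, and their modification by CYP81F2 and the IGMT methyltransferases contributes to flg22-triggered defence.

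Signals are in linear units that the authors scaled to the same trimmed mean on each array, and differences are log2(35S::ERF104) minus log2(Col-0) with the standard error (SE) of the limma fit to the 6 arrays. A probe set passed at a Benjamini-Hochberg adjusted p under 0.05 over all 22746 probe sets tested. Median signals were 151.6, 139.7 and 132.5 in 35S::ERF104 and 258.3, 189.8 and 134.8 in Col-0. Detection calls of present or marginal on all 3 arrays were given for 12412 probe sets in 35S::ERF104 and 5659 in Col-0. Probe sets called present on all 3 Col-0 arrays had lowest signals of 58.74 to 277.8, depending on the array. PDF1.2a, PDF1.2b, DIN11, MYB51, IGMT1 and LTP4 had at least 1 Col-0 signal below 58.74. Their differences are therefore fitted values and not measured sizes. The median SD of a probe set on the log2 scale was 0.344 in 35S::ERF104 and 0.843 in Col-0. Col-0 replicate 1 stood apart, since its correlations with the other 5 arrays across probe sets ended at 0.737, while other pairs of arrays reached 0.93. Col-0 replicate 2 reached at most 0.836. Col-0 replicate 3 reached 0.923, above the highest of either other Col-0 array, so its closest array was a 35S::ERF104 array. Counts of calls, and calls that ended without Col-0 replicate 1, are given with and without Col-0 replicate 1. Because leaves were measured in bulk, fewer cells of a type and less RNA per cell cannot be told apart.

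ERF104 (AT5G61600) had signals of 29060, 21440 and 29310 in 35S::ERF104 leaves, against 261, 80.1 and 167 in Col-0 leaves. Every transgenic array lay far above every Col-0 array, and the log2 difference was 7.44 ± 0.366 (adjusted p 1.04e-05), in the direction the genotype label gives. MPK6 had 1261, 1376 and 1629 in 35S::ERF104 and 1964, 2133 and 1653 in Col-0, and its difference of −0.43 ± 0.215 did not pass (adjusted p 0.381). FRK1, a receptor-like kinase used as a marker of the flg22 response, had 9226, 10250 and 10430 in 35S::ERF104 and 5334, 8635 and 13360 in Col-0. The groups overlapped in FRK1 and the difference of 0.23 ± 0.308 did not pass (adjusted p 0.727).

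Across the array, 64 probe sets rose and 18 fell in 35S::ERF104, 82 in all or 0.361% of those tested (0.281% higher, 0.0791% lower). Of these, 52 rises and 13 falls exceeded 3-fold (0.286%). The median difference over all probe sets was −0.28, so the rises stood against a slight shift the other way. Over the 15196 probe sets called present or marginal in a group the median was −0.04. Over the 11373 with a mean signal above the median signal it was −0.01. Fits limited to these sets passed 55 and 57 probe sets. Without Col-0 replicate 1, 60 rose and 8 fell, and 50 of the 82 were still called. The count needs the trend of variance with signal in the limma fit, since with no trend no probe set passed (2412 at an unadjusted p under 0.05), and it ran from 27 without Col-0 replicate 2 to 2737 without Col-0 replicate 3. That last fit also turned the balance, with 1167 higher and 1570 lower. A group of 22 probe sets, all higher, passed with any single array left out, among them ERF104, PDF1.2a, PDF1.2b, MYB51, CYP81F2, IGMT2, ASA1, SOT16, PR4, LTP4 and DIN11.

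Defensin genes gave the largest rise. PDF1.2a (AT5G44420), which encodes an antifungal peptide and is the standard output gene of combined ethylene and jasmonate signalling, had signals of 27030, 17290 and 25630 in 35S::ERF104, against 19.8, 10.6 and 96.4 in Col-0. No Col-0 array came near the transgenic arrays, and the gene was called present on some but not all Col-0 arrays. The fitted log2 difference was 9.72 ± 0.625 (adjusted p 4.5e-05). It is not a measured size, since the Col-0 signals of 19.8 and 10.6 lay below 58.74. PDF1.2b (AT2G26020) had 27030, 17070 and 22990 in 35S::ERF104, against 219, 39.02 and 125 in Col-0, a difference of 7.75 ± 0.498 (adjusted p 4.5e-05). Its probe set carries a suffix for cross-hybridisation, so signal from PDF1.2a and its near-identical relatives cannot be told apart from its own.

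Among the 8 defensin genes with a probe set of their own, PDF1.2a was the only member that passed, and the median difference was 0.17 (without Col-0 replicate 1, 0.68). PDF1.4 had 543, 1023 and 373 in 35S::ERF104 and 3004, 4995 and 597 in Col-0 (−1.81 ± 0.647, adjusted p 0.277). As a fall it passed under 2 of 16 alternatives, 1 of them without Col-0 replicate 3. PDF2.2 had 3652, 3719 and 2533 in 35S::ERF104 and 3345, 3423 and 1454 in Col-0 (0.35 ± 0.327, adjusted p 0.613). The arrays of PDF1.4 and PDF2.2 overlapped between genotypes. PDF2.3 gave 0.77 ± 0.291 (adjusted p 0.296), and PDF1.1, called absent in Col-0, did not pass (adjusted p 0.396). PDF2.1, PDF2.5 and PDF2.6 were called absent on every array of both groups.

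Other outputs of ethylene and jasmonate signalling were less uniform. Of 9 measured members, 2 rose and none fell (against 0.281% and 0.0791% of all probe sets), with a median of −0.36. The fit to 12 arrays called none of the 9. PR4, a chitin-binding pathogenesis-related protein, had 1542, 1049 and 1792 in 35S::ERF104, against 204, 105 and 144 in Col-0 (3.29 ± 0.342, adjusted p 0.00205). AT2G43590 had 1859, 1531 and 2201 in 35S::ERF104, against 867, 580 and 569 in Col-0 (1.48 ± 0.255, adjusted p 0.0401). The arrays did not overlap in either gene, and both passed without Col-0 replicate 1. PR4 passed in all 6 fits with 1 array left out, but AT2G43590 in only 2 of them (adjusted p up to 0.299). The basic chitinase HCHIB and the osmotin-like OSM34 were called absent on every array of both groups. PR1, an output gene of salicylic acid signalling, had 49.1, 62.2 and 88.3 in 35S::ERF104 and 88.6, 104 and 83.7 in Col-0, where it was called absent on every array (adjusted p 0.724). None of the 21 measured genes of salicylic acid and systemic resistance passed, and their median was −0.08.

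Among the other group IX factors, ERF104's closest relatives, none passed in the fit to the 6 arrays. ERF104 itself made 1 call in 16 measured members, against 0.281% of all probe sets higher, and their median was −0.24 (0.17 without Col-0 replicate 1). ERF15 came nearest, with 510, 677 and 695 in 35S::ERF104, against 35.9, 36.7 and 188 in Col-0, where it was called absent. It was at least 3.44-fold higher (adjusted p 0.0588, with the bound as defined for the 5 absent genes that rose), and its arrays did not overlap. ERF15 passed under 3 of 16 alternatives, without Col-0 replicate 3, in a fit to 23 arrays and with the replicate number as a block. ORA59, which integrates ethylene and jasmonate signals at the PDF1.2a promoter, had 617, 277 and 382 in 35S::ERF104 and 362, 177 and 42.1 in Col-0, with overlapping arrays (1.53 ± 0.686, adjusted p 0.350). Col-0 was called absent for ERF98 (adjusted p 0.306), ERF105 (adjusted p 0.455), ERF6 (adjusted p 0.481), ERF2 (adjusted p 0.287) and ERF1 (adjusted p 0.684), so no size is given for them. ERF5 gave −0.39 ± 0.513 (adjusted p 0.716) and ERF1A −0.45 ± 0.585 (adjusted p 0.718). AT5G07580 gave 0.30 ± 0.383 (adjusted p 0.709) and AT5G61590 −0.41 ± 0.613 (adjusted p 0.752). The remaining 4, ESE1, ERF13, AT4G18450 and AT5G43410, were called absent on every array of both groups. No member of the list of 14 other ERF factors passed (median −0.02).

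**Figure D1:**
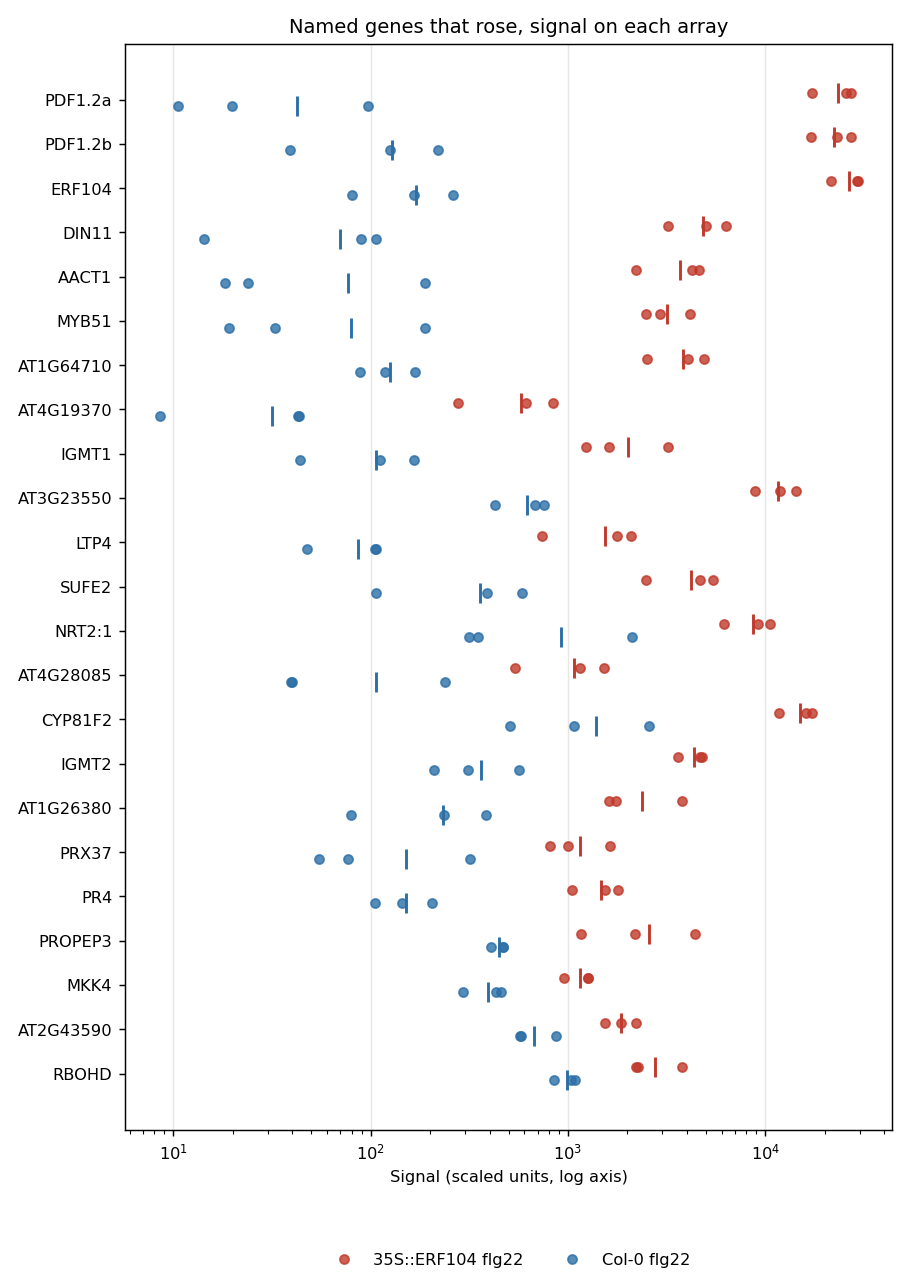
Signal on each array (scaled units, log axis) of the 23 named genes that rose, ordered by log2 difference, with 35S::ERF104 flg22 in red above Col-0 flg22 in blue. Points are arrays and ticks are means of 3 arrays. In every gene shown the 3 transgenic arrays lie above the 3 Col-0 arrays, with the widest gap in PDF1.2a and the narrowest differences in AT2G43590 and RBOHD.

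Genes of the tryptophan and indole glucosinolate pathway made up the list with the most calls. Of 25 measured members of the list for tryptophan, camalexin and indole glucosinolates, 7 rose and none fell (28.0%, against 0.361% of all probe sets), and the median difference was 1.39 against −0.28 over all probe sets. In 17 of the 25 the transgenic arrays lay above all Col-0 arrays, against 7.18% of all probe sets, and in none did they lie below. The median was 1.48 after quantile normalization and 1.81 after median centring, with 6 and 5 members called. Fits to 12 and 24 arrays called 4 and 1, and without Col-0 replicate 3 15 members rose. Without Col-0 replicate 1, 6 members rose, UGT74B1 no longer passed and the median was 1.14.

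MYB51 (AT1G18570), a transcription factor that activates the pathway, had 2483, 2927 and 4138 in 35S::ERF104, against 32.6, 19.1 and 187 in Col-0. The 3 transgenic arrays were all above 2000 and the Col-0 arrays below 200, a fitted difference of 5.99 ± 0.675 (adjusted p 0.00324). It is not a measured size, since the Col-0 signals of 32.6 and 19.1 lay below 58.74. Its relatives did not pass: MYB34 was called absent in 35S::ERF104 (adjusted p 0.379) and MYB122 in Col-0 (adjusted p 0.438).

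In tryptophan synthesis, ASA1, the feedback-regulated entry enzyme, had 6499, 4177 and 5584 in 35S::ERF104, against 894, 1159 and 1231 in Col-0 (2.298 ± 0.236, adjusted p 0.00197). PAT1 gave 1.04 ± 0.214 (adjusted p 0.0874) and TSA1 1.12 ± 0.229 (adjusted p 0.0881), and in both the arrays did not overlap. In the core pathway, CYP79B2, which converts tryptophan to its aldoxime, gave 2.77 ± 0.508 and fell just short (adjusted p 0.0513). Its paralogue CYP79B3 gave 0.59 ± 0.245 (adjusted p 0.334). CYP83B1 gave 1.04 ± 0.234 (adjusted p 0.111) and SUR1, the C-S lyase, 1.29 ± 0.247 (adjusted p 0.0651). The glucosyltransferase UGT74B1 had 3544, 1979 and 2084 in 35S::ERF104, against 781, 797 and 963 in Col-0 (1.54 ± 0.262, adjusted p 0.0395). The sulfotransferase SOT16 had 8427, 6472 and 6764 in 35S::ERF104, against 1153, 2122 and 1640 in Col-0 (2.17 ± 0.252, adjusted p 0.00367). All the core enzymes named here were higher on each transgenic array than on any Col-0 array.

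Genes that modify the indole ring rose by up to 4.32 on the log2 scale. CYP81F2, the cytochrome P450 that hydroxylates indole glucosinolates, had 16150, 11760 and 17230 in 35S::ERF104, against 1073, 505 and 2573 in Col-0 (3.73 ± 0.462, adjusted p 0.00524). IGMT1, a methyltransferase acting after it, had 1620, 1235 and 3211 in 35S::ERF104, against 43.7, 111 and 166 in Col-0 (4.32 ± 0.504, adjusted p 0.00367). IGMT2 had 4663, 3621 and 4777 in 35S::ERF104, against 209, 310 and 563 in Col-0 (3.70 ± 0.332, adjusted p 9.23e-04). The arrays were far apart in all 3 genes. The other CYP81F genes did not pass, with −0.13 ± 0.454 for CYP81F3 (adjusted p 0.898), and CYP81F1 (adjusted p 0.428) and CYP81F4 (adjusted p 0.481) were called absent in Col-0. PEN2, the myrosinase that activates these products, gave 0.83 ± 0.350 (adjusted p 0.338), and the transporter PEN3 −0.31 ± 0.357 (adjusted p 0.683), both with overlapping arrays.

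The camalexin branch gave no call. PAD3, which makes camalexin, gave 2.27 ± 0.868 (adjusted p 0.304) with arrays that did not overlap, and CYP71A13 was called absent in Col-0 (adjusted p 0.733). The 13 measured genes of aliphatic glucosinolates, which are made from methionine, likewise gave no call, although 12 were higher in 35S::ERF104 and the median was 0.91. Their largest difference was 2.75 ± 0.880 for the chain-elongation enzyme MAM3 (adjusted p 0.245). In 5 of the 13 the transgenic arrays lay above all Col-0 arrays, against 7.18% of all probe sets. Without Col-0 replicate 3, 5 of the 13 passed.

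**Figure D2:**
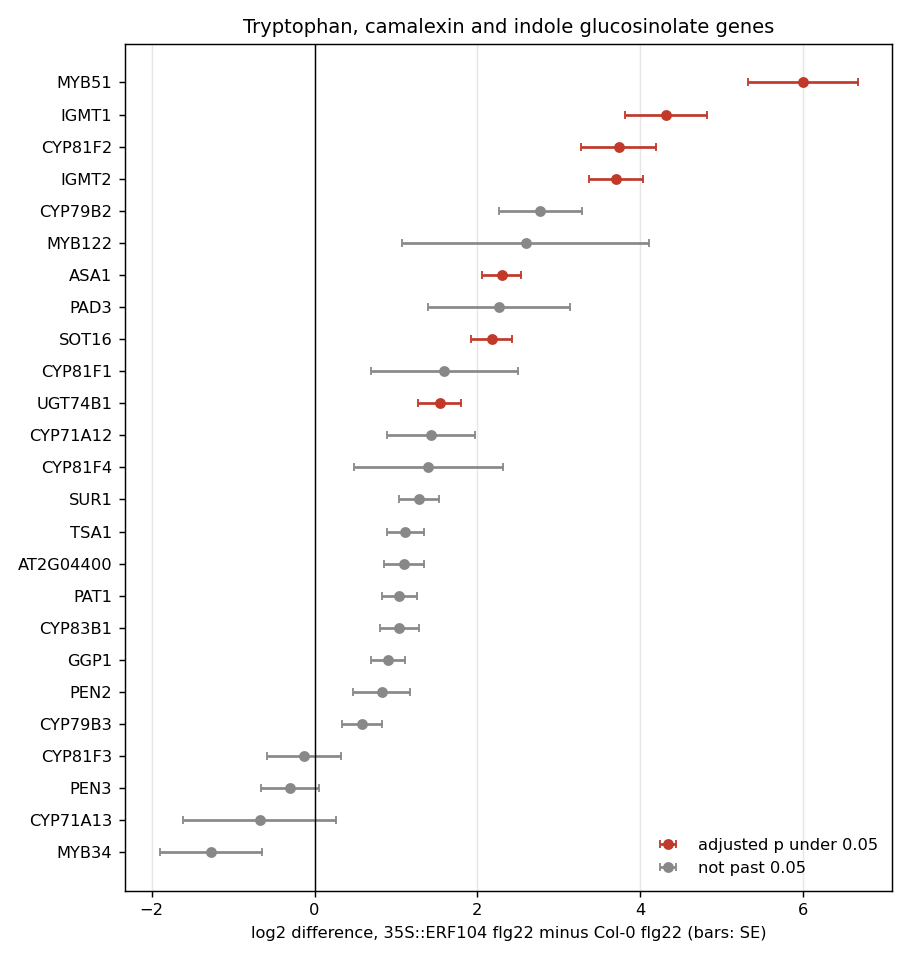
Log2 difference between 35S::ERF104 flg22 and Col-0 flg22 for the 25 measured genes of tryptophan, camalexin and indole glucosinolates, with bars for the SE of the fit. The 7 genes with an adjusted p under 0.05, in red, run from 1.54 for UGT74B1 to 5.99 for MYB51, and no gene passed below 0. CYP81F1, CYP81F4, MYB122, CYP71A12 and CYP71A13 were called absent in Col-0 and MYB34 in 35S::ERF104, so their points are fitted values and not measured sizes. The points of MYB51 and IGMT1 are fitted values as well, since at least 1 Col-0 signal lay below 58.74.

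Among immune signalling genes, 3 of 29 rose and none fell (against 0.281% and 0.0791% of all probe sets, median −0.12). PROPEP3, the precursor of a danger peptide that amplifies immunity, had 1159, 2188 and 4377 in 35S::ERF104, against 468, 468 and 407 in Col-0 (2.32 ± 0.396, adjusted p 0.0395). MKK4, a kinase that activates MPK3 and MPK6, had 954, 1260 and 1255 in 35S::ERF104, against 292, 429 and 458 in Col-0 (1.57 ± 0.274, adjusted p 0.0446). RBOHD, the NADPH oxidase of the oxidative burst, had 2255, 2215 and 3768 in 35S::ERF104, against 847, 1078 and 1034 in Col-0 (1.44 ± 0.255, adjusted p 0.0458). None of the 3 passed without Col-0 replicate 1 (adjusted p 0.115, 0.0507 and 0.123), and none of the 29 passed after quantile normalization or median centring. The receptor gene FLS2 differed by −0.47 ± 0.272 (adjusted p 0.435) and its co-receptor BAK1 by 0.11 ± 0.202 (adjusted p 0.795). MPK3 gave 0.73 ± 0.383 (adjusted p 0.400), and PROPEP2 −0.22 ± 0.428 (adjusted p 0.816).

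Several of the largest rises lay in genes of other functions. DIN11, a dark-inducible gene, had 6282, 3224 and 4976 in 35S::ERF104, against 14.2, 106 and 89.1 in Col-0 (6.50 ± 0.639, adjusted p 0.00160). AT3G23550 had 14220, 8817 and 11810 in 35S::ERF104, against 680, 427 and 751 in Col-0 (4.24 ± 0.270, adjusted p 4.5e-05). LTP4, a lipid transfer protein, had 1775, 2086 and 735 in 35S::ERF104, against 47.5, 105 and 107 in Col-0 (4.11 ± 0.472, adjusted p 0.00350). These 3 passed with any single array left out. NRT2:1, a high-affinity nitrate transporter known from roots, had 10590, 6157 and 9200 in 35S::ERF104, against 314, 352 and 2105 in Col-0 (3.78 ± 0.586, adjusted p 0.0247; without Col-0 replicate 1, 0.0996). SUFE2, an activator of sulfur transfer for iron-sulfur clusters, gave 3.78 ± 0.534 (adjusted p 0.0149). Of the berberine bridge enzyme-like oxidases, AT1G26380 was the single member of 17 that rose (against 0.281% of all probe sets), with 1759, 1612 and 3772 in 35S::ERF104, against 79.8, 383 and 234 in Col-0 (3.52 ± 0.522, adjusted p 0.0205).

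For 5 of the 64 rises Col-0 was called absent on all 3 arrays, and only a lower bound can be given: the transgenic mean over the mean of, per Col-0 array, the higher of the dim signal and the lowest signal called present, both as means of log2 signals. AACT1, named an anthocyanin acyltransferase in RefSeq, had 4623, 2208 and 4264 in 35S::ERF104, against 187, 18.21 and 23.9 in Col-0, and was at least 28.7-fold higher (adjusted p 0.00350). AT1G64710 had 4047, 2509 and 4902 in 35S::ERF104, against 88.4, 118 and 168 in Col-0, and was at least 20.8-fold higher (adjusted p 5.8e-05). The peroxidase gene PRX37 was at least 8.54-fold higher (adjusted p 0.0458), AT4G28085 at least 6.23-fold (adjusted p 0.0478, or 0.146 when Col-0 replicate 1 was left out) and AT4G19370 at least 4.26-fold (adjusted p 0.0446). PRX37, AT4G28085 and AT4G19370 each passed in only 2 of the 6 fits with 1 array left out.

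Across all probe sets whose arrays did not overlap, 1634 were higher and 2920 lower in 35S::ERF104, while 18 falls and 64 rises passed. None of the falls passed with every single array left out in turn. Without Col-0 replicate 2 none of the 18 passed, and without Col-0 replicate 3 all 18 did. With 35S::ERF104 replicate 1, 2 or 3 left out, 2, 3 and 1 of the 18 passed. ACS8, LOX3, PGIP1, ABCG1 and MAKR6 each passed in only 1 of the 6 fits with 1 array left out. Of the 15 named falls, 4 passed without Col-0 replicate 1, namely PRX52, AT2G04570, AT2G42060 and HIPL2, and all 15 were still lower in 35S::ERF104, by −4.03 to −1.41. In 13 of the 15 the Col-0 array nearest to the transgenic ones was replicate 3. After median centring, which moved the median of all probe sets to 0.14, no fall passed, and 28 rises did.

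PRX52, a class III peroxidase linked to lignin, had 103, 159 and 156 in 35S::ERF104, against 842, 1303 and 834 in Col-0, a difference of −2.83 ± 0.339 (adjusted p 0.00453). It was the fall with the smallest adjusted p. AT4G36430, from the same list of peroxidases, had 83.6, 86.5 and 110 in 35S::ERF104, against 6159, 5815 and 394 in Col-0 (−4.70 ± 0.835, adjusted p 0.0458). Its 2 highest Col-0 arrays were over 10 times the third, and without Col-0 replicate 1 the adjusted p was 0.166. Of 14 class III peroxidases with a probe set of their own 1 rose, PRX37, and 2 fell (against 0.281% and 0.0791% of all probe sets, median −0.88). The peroxidase gene AT4G37530, whose probe set matches several genes and was not counted, also rose (2.28 ± 0.278, limma adjusted p 0.00480). Without Col-0 replicate 1 the falls were 1.

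Hormone synthesis genes fell at single members. ACS8, which makes the ethylene precursor ACC, had 117, 120 and 84.8 in 35S::ERF104, against 815, 1336 and 402 in Col-0 (−2.84 ± 0.454, adjusted p 0.0293; 0.0863 without Col-0 replicate 1). It was the only call among 13 ethylene biosynthesis genes (median −0.58, turning to 0.21 after quantile normalization); ACS2 gave −1.33 ± 0.289 (adjusted p 0.106) and ACS6, a target of MPK6, 1.48 ± 0.509 (adjusted p 0.268). LOX3, a lipoxygenase at the start of jasmonate synthesis, had 1316, 1925 and 2168 in 35S::ERF104, against 6861, 5229 and 4509 in Col-0 (−1.63 ± 0.252, adjusted p 0.0247; 0.0673 without Col-0 replicate 1). It was the only call among 23 jasmonate genes (median −0.47), where JAZ10, a repressor induced by jasmonate, gave −1.87 ± 0.381 (adjusted p 0.0868) and the transcription factor MYC2 −0.01 ± 0.231 (adjusted p 0.994).

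The other falls named were PGIP1, an inhibitor of fungal polygalacturonases, with 743, 730 and 757 in 35S::ERF104, against 7218, 6745 and 1923 in Col-0 (−2.61 ± 0.421, adjusted p 0.0298). The transporter ABCG1, which exports precursors of suberin, fell by 2.43 on the log2 scale (adjusted p 0.0458), and MAKR6, a membrane-associated kinase regulator, by 2.45 (adjusted p 0.0347). HIPL2 had 1688, 1920 and 1960 in 35S::ERF104, against 4355, 7160 and 4887 in Col-0 (−1.53 ± 0.232, adjusted p 0.0223). ELI3-2, an elicitor-activated gene of the cinnamyl alcohol dehydrogenase family, had 1733, 2544 and 2859 in 35S::ERF104, against 7446, 6711 and 5677 in Col-0 (−1.50 ± 0.239, adjusted p 0.0293). The remaining 6 were AT2G04570, AT5G02890, AT5G12420, AT2G44130, the organellar DNA-binding protein RAD52-2 and AT2G42060, with log2 differences from −2.38 to −1.64.

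**Figure D3:**
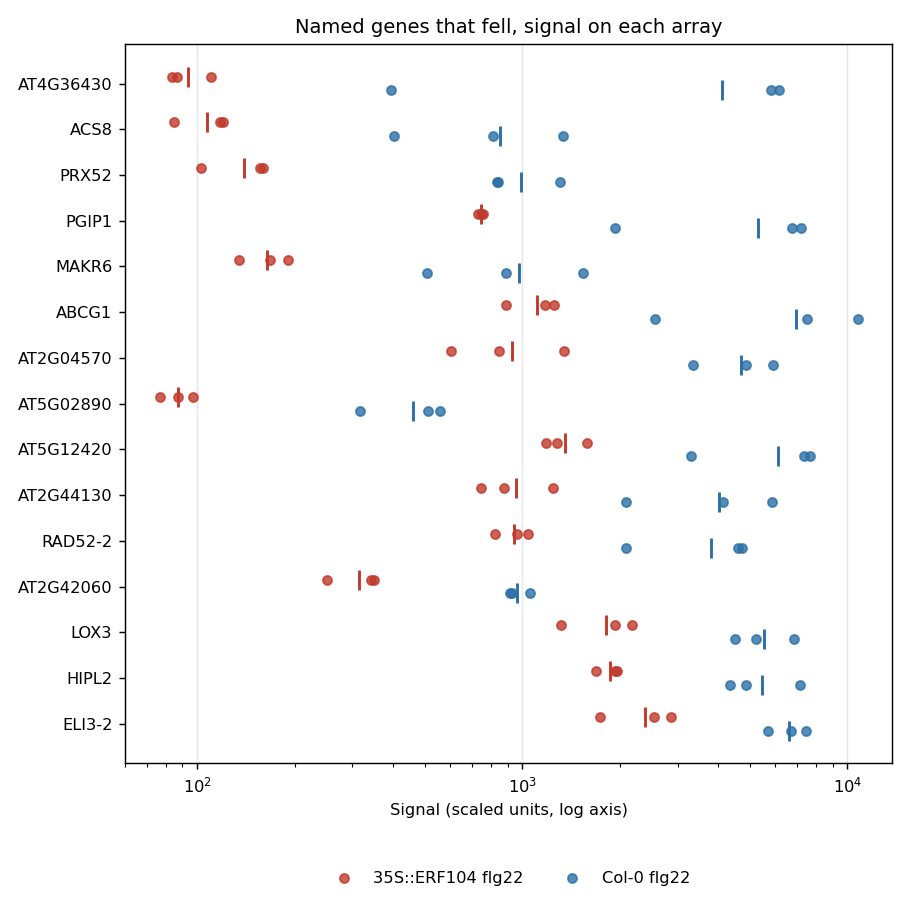
Signal on each array (scaled units, log axis) of the 15 named genes that fell, with 35S::ERF104 flg22 in red above Col-0 flg22 in blue. Points are arrays and ticks are means of 3 arrays. The transgenic arrays lie close together and below all Col-0 arrays, which spread widely in AT4G36430, where replicate 3 stands at 394 and the others at 6159 and 5815.

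A separate set of arrays gave a response to flg22 in the mpk6 mutant, which need not equal that of Col-0 or 35S::ERF104 leaves. In mpk6 leaves, whose arrays are shared with neither group, 494 probe sets were higher and 353 lower under flg22 than under water at the same adjusted p. Of the 494, 10 fell and 2 rose in 35S::ERF104, shares of 2.02% and 0.405% against 0.0791% and 0.281% of all probe sets. The median difference of the 494 was −0.17, against −0.28 over all probe sets and −0.04 over those called present or marginal in a group. The 10 were PRX52, AT4G36430, AT5G12420, HIPL2, LOX3, RAD52-2, PGIP1, AT2G42060, PSK4 and BSK7, so 10 of the 18 falls were among genes that flg22 raised in mpk6. Without Col-0 replicate 1, 4 of the 494 fell (0.81%, against 0.0352% of all probe sets), namely PRX52, HIPL2, AT2G42060 and PSK4, and without Col-0 replicate 2 none did. With 35S::ERF104 replicate 1, 2 or 3 left out, 1, 2 and 1 of the 494 fell (0.202%, 0.405% and 0.202%). The shares of all probe sets were then 0.00879%, 0.0132% and 0.0044%. Without Col-0 replicate 3, 78 fell and 51 rose (15.8% and 10.3%, against 6.9% and 5.13% of all probe sets). In the fit to the 6 arrays, the 2 rises were PROPEP3 and YLS5. Of the 353, SERAT2;2 and AT1G29660 rose and none fell (median 0.14), and neither passed without Col-0 replicate 1 (adjusted p 0.0863 and 0.0926). The remaining 21899 probe sets held 60 rises and 8 falls.

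PRX52 is an example of the 10. Its signals were 103, 159 and 156 in 35S::ERF104 flg22 and 51.1, 71.8 and 31.2 in 35S::ERF104 water, against 842, 1303 and 834 in Col-0 flg22 and 220, 178 and 173 in Col-0 water. LOX3 had 1316, 1925 and 2168 in 35S::ERF104 flg22 and 792, 909 and 377 in 35S::ERF104 water, against 6861, 5229 and 4509 in Col-0 flg22 and 1185, 1802 and 145 in Col-0 water. In both genes each genotype was higher under flg22 than under water on all arrays, and the transgenic flg22 arrays stayed below the Col-0 flg22 arrays. PROPEP3 had 1159, 2188 and 4377 in 35S::ERF104 flg22 and 37.7, 101 and 93.7 in 35S::ERF104 water, all called absent, against 468, 468 and 407 in Col-0 flg22 and 367, 12.1 and 88.4 in Col-0 water.

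**Figure D4:**
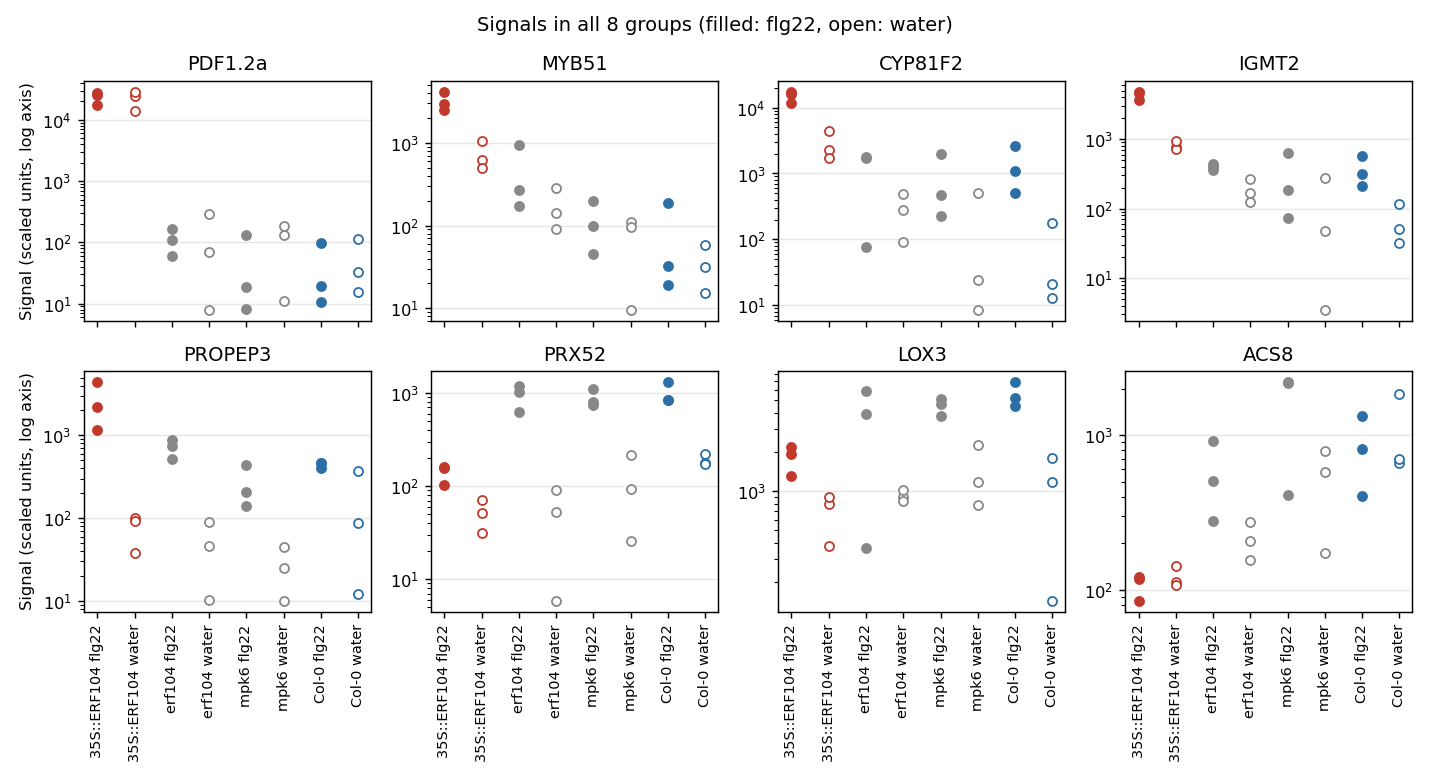
Signal on each array (scaled units, log axis) of 8 genes in all 8 groups of the series, with flg22 as filled and water as open points. 35S::ERF104 is red, erf104 and mpk6 are grey and Col-0 is blue. PDF1.2a is high in both transgenic groups, MYB51, CYP81F2 and IGMT2 are highest in 35S::ERF104 flg22, and PRX52, LOX3 and ACS8 are lower in 35S::ERF104 flg22 than in Col-0 flg22.

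The same genotypes under water, on 6 arrays that the flg22 comparison does not use, were then set beside these results. There 28 probe sets rose and 4 fell (0.123% and 0.0176% of those tested), with a median of −0.48 over all. Calls of present or marginal on all 3 arrays were given for 12048 probe sets in 35S::ERF104 water but only 2572 in Col-0 water. The lowest signals of probe sets called present on all 3 arrays were 33.96 to 38.01 in 35S::ERF104 water and 145.6 to 347.4 in Col-0 water. Of the 64 that rose under flg22, 63 were also higher in 35S::ERF104 under water, against 7836 of all 22746 probe sets, and in 47 the arrays did not overlap, against 9.34% of all probe sets with non-overlapping arrays higher. Of the 64, 10 passed under water, namely ERF104, PDF1.2a, PDF1.2b, MYB51, CYP81F2, IGMT2, SOT16, DIN11, AT3G23550 and PLA2A. The median difference over the 64 was 2.29 under flg22 and 1.73 under water. Col-0 under water was called absent on every array for 26 of the 64 rises and 3 of the 18 falls, so their differences under water are fitted values and not measured sizes. Of the 18 falls, 17 were also lower under water, against 14901 of all probe sets, and 1, ACS8, passed (−2.99, adjusted p 0.0472). The arrays lay apart under water in 7 of the 18, against 21.3% of all probe sets lower. With Col-0 flg22 replicate 1 left out, 58 of 60 rises were also higher and 6 of 8 falls also lower under water.

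The PDF1.2a signals of the 2 treatments overlapped in the transgenic leaves. PDF1.2a had 27030, 17290 and 25630 under flg22 and 24230, 14020 and 28480 under water in 35S::ERF104. CYP81F2 and MYB51, from the indole glucosinolate list, had higher signals under flg22 than under water on all arrays of 35S::ERF104. The flg22 response within 35S::ERF104 was not tested here. CYP81F2 had 16150, 11760 and 17230 in 35S::ERF104 flg22 and 2262, 1727 and 4368 in 35S::ERF104 water, against 1073, 505 and 2573 in Col-0 flg22 and 13.1, 20.9 and 179 in Col-0 water. MYB51 had 2483, 2927 and 4138 in 35S::ERF104 flg22 and 629, 495 and 1061 in 35S::ERF104 water, against 32.6, 19.1 and 187 in Col-0 flg22 and 31.8, 15.1 and 57.8 in Col-0 water.

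Whether the genotype difference itself depended on flg22 was tested as the interaction over all 12 arrays of the 2 genotypes. No probe set passed in limma, and 1132 (4.98%) had an unadjusted p under 0.05. The adjusted p was at least 0.946 for each of the 82 called probe sets. ERF104, PDF1.2a, MYB51 and CYP81F2 were called absent in Col-0 under water, and AT4G36430 and PROPEP3 in both genotypes under water, so no size is given for their interaction. Among genes called present on at least 1 array of every group, the flg22 difference minus the water difference was −0.02 ± 0.687 for ASA1 (unadjusted p 0.979), 0.05 ± 0.452 for SOT16 (unadjusted p 0.916), −1.56 ± 0.906 for LOX3 (unadjusted p 0.103) and −1.54 ± 0.532 for HIPL2 (unadjusted p 0.0105). These genes are examples and not the strongest. Other called probe sets had smaller unadjusted limma p, among them IGMT4 (5.48e-04), LAP1 (0.0049) and PLA2A (0.0071).

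**Figure D5:**
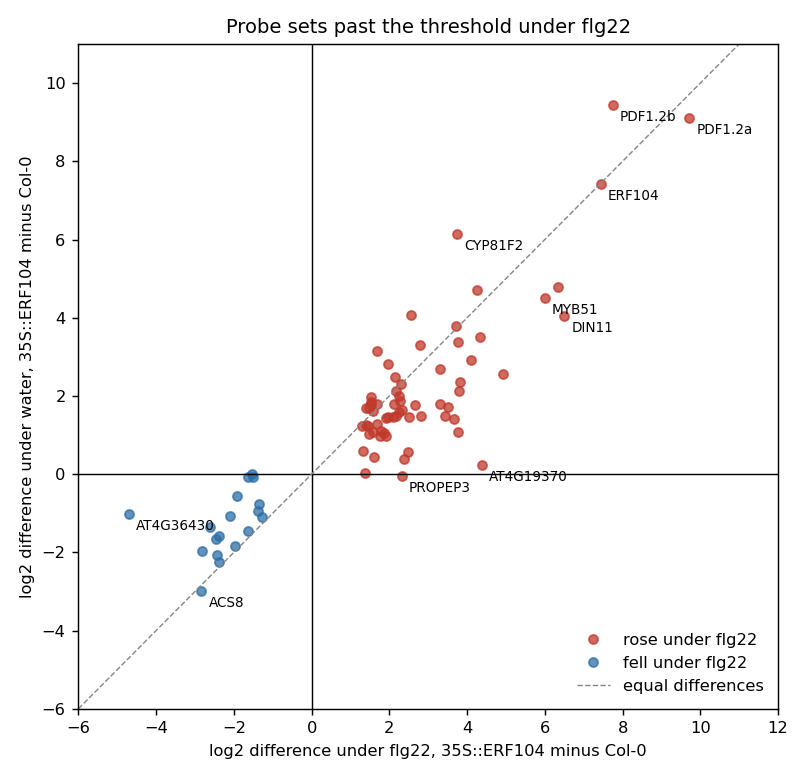
Log2 difference between 35S::ERF104 and Col-0 under flg22 (horizontal axis) and under water (vertical axis) for the 82 probe sets past the threshold under flg22, as points. Red points rose and blue points fell under flg22, and the dashed line marks equal differences. Of the red points 63 of 64 lie above 0 under water, and of the blue points 17 of 18 lie below 0.

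The remaining gene lists held no call in the fit to the 6 arrays. Their medians are to be read against −0.28 over all probe sets and −0.04 over those called present or marginal in a group. They were −0.34 for 58 WRKY transcription factors, −0.63 for 27 tau-class glutathione transferases, −0.57 for 17 phenylpropanoid and lignin genes and −0.30 for 11 flavonoid and anthocyanin genes. They were 0.09 for 21 cysteine-rich receptor-like kinases, −0.18 for 14 genes of ethylene perception and signalling, −0.16 for 10 ER chaperones and −0.94 for 14 heat shock genes. They were −0.04 for 12 circadian clock genes, 0.26 for 14 abscisic acid and cold genes, −0.23 for 22 Aux/IAA and expansin genes, and −0.42 for 8 senescence genes. The receptor-like kinase CRK39 did rise (2.37 ± 0.422, limma adjusted p 0.0460, or 0.0503 without Col-0 replicate 1). Its probe set matches several genes and was not counted in the list. Without Col-0 replicate 1, 1 glutathione transferase, GSTU12, and 1 cold gene, CBF3, rose. Without Col-0 replicate 3, 7 phenylpropanoid genes fell and 4 heat shock genes rose and 6 fell, and most of the other lists held calls as well. In the fits to 23 and to 24 arrays 1 phenylpropanoid gene fell. After quantile normalization or median centring, which moved the median of all probe sets to −0.01 and 0.14, the medians turned positive for group IX ERF factors (0.34 and 0.17), other ethylene and jasmonate outputs (0.50 and 0.06), immune signalling (0.12 and 0.29) and salicylic acid genes (0.30 and 0.34). They also turned positive under at least 1 of these scalings for the ethylene lists, other ERF factors, WRKY factors, ER chaperones and the clock, auxin, flavonoid, photosynthesis and guard cell lists, and the vascular median turned to −0.06 after quantile normalization. The phenylpropanoid list was lower in 35S::ERF104 for 16 of 17 members, against 14447 of all 22746 probe sets. In 7 of them the arrays did not overlap, against 12.8% of all probe sets. After median centring 12 of 17 were lower, against 10033 of all 22746. Under water the list median was 0.15, against −0.48 over all probe sets.

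Markers of leaf mesophyll and of other cell types were read in the same way. The 25 nuclear photosynthesis genes had a median of −0.08 and no call, and summed to 436500 to 499500 in 35S::ERF104 and 452800 to 565400 in Col-0. No call fell among 10 guard cell and stomatal lineage markers (summed signal 1106 to 1143 in 35S::ERF104 and 1225 to 1853 in Col-0), 5 vascular markers (3407 to 4685 in 35S::ERF104 and 3041 to 5435 in Col-0), 4 trichome markers (887 to 1156 in 35S::ERF104 and 682 to 1182 in Col-0) or 7 root and flower markers (1052 to 1951 in 35S::ERF104 and 845 to 1989 in Col-0). Their medians were −0.29, 0.08, −0.91 and −0.64, and the sums overlapped between genotypes in all but the guard cell list. Of these markers 3, 1, 2 and 3 were called absent on every array of both groups.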

How the data were processed

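Biotin-labelled cRNA was hybridised to ATH1 arrays. For each array the deposited value table lists a linear intensity for every probe set, which the authors had scaled to a mean of about 500.0 after trimming 2% at each end. The sources used here do not give the summarising software. A Genespring table deposited by the authors gives, per group, a ratio to the probe set's median, intensities and detection calls as letters; its columns for 35S::ERF104 carry another name and were assigned by elimination. Only its calls and locus names were used.

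Values were log2-transformed without a pseudocount, and 64 control probe sets were left out. The functions lmFit and eBayes (trend on) of limma 3.58.1, under R 4.3.3, were fitted to the 6 arrays, with Benjamini-Hochberg adjustment over 22746 probe sets. The fit was also run on simulated data with known differences. There both groups had the same SD for a probe set, so unequal spread between groups was not tested. Water arrays, the 12-array interaction and mpk6 arrays were fitted alike. The precision is limited by 3 arrays a group. The series text's filter on calls per array was not applied.

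Loci were named through the RefSeq table of assembly TAIR10.1, which matched 22091 of 22591. The 29 gene lists held 535 genes, 481 with a suffix-free probe set; a gene with several took its brightest. Named genes are ERF104, MPK6, PDF1.2a, PDF1.2b, PR1 and FRK1, the 15 largest single-gene rises and falls, up to 4 called members per list and direction, and all defensins and group IX factors, with further list members given as context. The members and lists were chosen with earlier results of these data known. Same-numbered arrays of the 2 genotypes deviated from their group means with correlations of −0.017, −0.021 and −0.10 across probe sets, so the numbers were not used as pairs. Alternatives are in the closing section. A planned count of promoter motifs was not run, as no promoter sequence was used here.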

Additional observations from a re-analysis of the deposited data

How the results depend on the processing

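For 35S::ERF104 against Col-0 under flg22, the count of 82 probe sets became 42 in a fit of 12 arrays, 24 in a fit of all 24 arrays, 100 in a fit of 23 arrays (76 higher, 24 lower), 44 after quantile normalization (37 higher, 7 lower, or 84.1% higher against 78.0%), 28 after median centring (28 higher, none lower, 100%), 50 with a pseudocount of 50 and 0 with no trend. With 1 array left out it ran from 27 to 2737, and without Col-0 replicate 3 the balance turned to 1167 higher and 1570 lower. The methods' test, at an unadjusted p under 0.05 and over 3-fold, called 830 (198 higher, 632 lower), of which 65 were shared, and 0 after Benjamini-Hochberg adjustment. The count of 32 in the comparison of 35S::ERF104 against Col-0 under water became 246 in a fit of 12 arrays, 1332 with 23 arrays (532 higher, 800 lower), 0 with no trend (4700 at an unadjusted p under 0.05), 7 after quantile normalization and 430 after median centring, and ran from 5 to 1420 with 1 array left out. The rise of ERF104 did not pass with no trend (adjusted p 0.176), and kept direction and call otherwise. Of 38 named genes that passed, 11 passed with any array left out, none passed with no trend, and none turned direction under an alternative.

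With the replicate number as a block, 276 probe sets passed under flg22 (201 higher, 75 lower), all 82 among them, and 337 under water; the numbers do not pair the arrays.

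Turned directions occurred in 11 named genes, none of which had passed, with these adjusted p: after quantile normalization PR1 0.917, ESE1 0.864, ERF13 0.915 and PDF2.1 0.865; after median centring ESE1 0.918, ERF13 0.998, ERF5 0.989 and PDF2.1 0.891. Over the fits with 1 array left out, of which at least 1 turned the direction, they ran from 0.128 to 0.889 for FRK1, 0.565 to 0.965 for ESE1, 0.684 to 0.960 for ERF13, 0.194 to 0.988 for ERF5, 0.222 to 0.997 for ERF1A, 0.520 to 0.892 for AT5G07580, 0.399 to 0.895 for AT5G61590, 0.438 to 0.992 for PDF2.1, 0.560 to 0.864 for PDF2.2 and 0.236 to 0.986 for PDF2.5. The cause of these changes was not tested. Counts in gene lists and in the mpk6 sets under other settings, and the calls without Col-0 replicate 1, were added after the data were seen.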

Other observations

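Further genes that rose in 35S::ERF104 under flg22, picked here after their values were seen, include sulfur genes. AKN2, a kinase of sulfate activation that supplies the sulfotransferases of glucosinolate synthesis, had signals of 7073, 4853 and 4893 in 35S::ERF104, against 1210, 1342 and 1913 in Col-0 (log2 difference 1.92 ± 0.248, limma adjusted p 0.00722). SERAT2;2, a serine acetyltransferase of cysteine synthesis, had 3485, 2669 and 2875 in 35S::ERF104, against 805, 935 and 1448 in Col-0 (1.54 ± 0.256, adjusted p 0.0347). GSH1, the entry enzyme of glutathione synthesis, had 3168, 2459 and 2014 in 35S::ERF104, against 1057, 942 and 1081 in Col-0 (1.29 ± 0.228, adjusted p 0.0458). The arrays did not overlap in any of the 3, but SERAT2;2 and GSH1 passed in 1 of the 6 fits with 1 array left out, and without Col-0 replicate 1 their adjusted p were 0.0863 and 0.0873.

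IGMT4, a relative of IGMT1 and IGMT2, had 4280, 3010 and 3654 in 35S::ERF104, against 316, 220 and 538 in Col-0 (3.43 ± 0.318, adjusted p 0.00112). IGMT3 and the tryptophan synthase gene TSB2 also rose (3.82 ± 0.426, adjusted p 0.00308; 1.49 ± 0.252, adjusted p 0.0383), from probe sets that match several genes. GRP7, an RNA-binding protein under clock control, had 8146, 8317 and 7308 in 35S::ERF104, against 2166, 2981 and 1969 in Col-0 (1.76 ± 0.220, adjusted p 0.00557). PLA2A, a patatin-like lipid hydrolase, had 7468, 4784 and 12570 in 35S::ERF104, against 1332, 1254 and 1341 in Col-0 (2.55 ± 0.307, adjusted p 0.00458), and its difference under water was 4.06 (adjusted p 8.31e-04).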
